A study of Mus musculus with 29 samples.

Results

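Interferon-stimulated genes, the transcripts that cells raise on sensing type I or type II interferon, were followed in mouse macrophages treated with IL-4, IL-6, IL-10 or their combinations. The list held 40 genes, and a gene counted as measured where a probe set of the array is annotated to that gene and to no other. This gave 34 genes on 50 probe sets, of 12394 genes and 22690 probe sets in all. The mice were C57BL/6, wild type and 8 weeks old, and their marrow cells became macrophages over 7 days in Teflon bags with CSF-1 (10 ng/ml), the growth factor that drives this differentiation. CSF-1 stayed in the medium for a further 24 h, when the cells received 10 ng/ml each of IL-4 (5 arrays), IL-6 (5 arrays), IL-10 (3 arrays), IL-4 plus IL-6 (5 arrays) or IL-4 plus IL-10 (3 arrays), or nothing more (unstimulated, 8 arrays). All groups received CSF-1, and no group received interferon. Nothing in the labels ties an array to its own mouse or culture, and p-values therefore measure only the spread between these arrays, which may be technical.

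Type I interferons act through Ifnar1 and Ifnar2 and the kinases Jak1 and Tyk2 to form a complex with Stat2 and Irf9 that binds the interferon-stimulated response element. Interferon-gamma acts through Ifngr1 and Ifngr2 on genes with a gamma-activated site, and Irf1 extends that response. Macrophages keep a low level of this program without infection, fed by small amounts of interferon-beta that they make themselves. Its products fall into antiviral effectors that act on viral RNA, nucleotides or budding, nucleic acid sensors, ubiquitin-like and ligase enzymes, chemokines, and the guanylate-binding proteins (GBP) and immunity-related GTPases (IRG), which gather on the membranes of vacuoles that hold parasites or bacteria. IL-4 signals mainly through Stat6, and IL-6 and IL-10 mainly through Stat3.

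Of the 34 measured genes, 32 passed the intensity filter (at least 3 arrays above log2 6.99, the median of all values) and were tested with limma in 1 fit of all 29 arrays and 7154 genes, a gene being called at an adjusted p under 0.05. Isg20, an RNA exonuclease, and the chemokine Cxcl9 did not pass. Isg20 had group means of log2 intensity from 5.98 with IL-4 to 6.86 with IL-6, and Cxcl9 lay between 3.91 and 5.05 on every array. Oas1g, Ifi44, Xaf1 and Rigi have no probe set of their own, and those of Isg15 and Tgtp1 are shared with another gene, so these 6 were not analysed here. A value after ± is the standard error (SE) of a log2 difference, a fold is the antilog of that difference, and no fold is given where a group mean lay under 6.99, since signal over background was not tested there. Overlap of single arrays between groups was examined for the members only. No share of all genes therefore stands beside such statements, which describe the genes named and are not read as particular to the members.

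The unstimulated arrays did not form 1 uniform group. Replicates 6 to 8 share their numbers with no other group and were taken as the controls of the 2 groups with IL-10 (the second set), an inference from the numbers that the labels do not state. Between replicates 6 to 8 and 1 to 5 of the unstimulated group, 19.1% of genes tested were called, 12.3% higher and 6.82% lower in replicates 6 to 8, among them 2 members, both higher there, Cxcl10 (log2 0.56 ± 0.11, adjusted p = 0.000698) and Ifi35 (0.20 ± 0.056, adjusted p = 0.0157). Of 8 measured macrophage markers all 8 passed the filter, their summed intensity being 69931 to 72182 with IL-4, 96767 to 100280 with IL-6, 95269 to 99070 with IL-10, 66345 to 69039 with IL-4 plus IL-6 and 66709 to 71862 with IL-4 plus IL-10, against 90435 to 94421 unstimulated. None of 9 T and NK cell markers and none of 6 fibroblast markers passed. Summed plasmacytoid dendritic cell markers (3 of 6 passing: Tcf4, Ly6d and Cox6a2) were 1056 to 1189 with IL-4, 1882 to 2018 with IL-6, 1863 to 2267 with IL-10, 1245 to 1330 with IL-4 plus IL-6 and 1187 to 1279 with IL-4 plus IL-10, against 1590 to 1769 unstimulated. That sum follows mainly Tcf4 (log2 mean 10.427 in unstimulated replicates 1 to 5, against 6.875 for Ly6d and 6.416 for Cox6a2). The 3 genes did not move alike: in each group with IL-4, 1 was called higher and 1 lower. Those of conventional dendritic cells (3 of 7 passing: Ccr7, Cd209a and Batf3) were 1715 to 2302 with IL-4, 468 to 546 with IL-6, 510 to 521 with IL-10, 2242 to 2516 with IL-4 plus IL-6 and 2028 to 2162 with IL-4 plus IL-10, against 436 to 551 unstimulated, while Flt3, Zbtb46, Xcr1 and Itgae did not pass. Of the B cell markers 4 of 7 passed, summing to 1391 to 1540 with IL-4 plus IL-10 at the low end and 4292 to 9234 with IL-6 at the high end, against 2297 to 7856 unstimulated. Neutrophil markers (5 of 7 passing: S100a8, S100a9, Ngp, Camp and Ltf, while Mpo and Elane did not) summed to 5095 to 6685 with IL-4, 5961 to 8241 with IL-6, 7647 to 11077 with IL-10, 4315 to 5714 with IL-4 plus IL-6 and 5010 to 7700 with IL-4 plus IL-10, against 7067 to 11184 unstimulated. Of these 5, 4 were called lower with IL-4, 5 with IL-4 plus IL-6 and 4 with IL-4 plus IL-10. Of the 8 macrophage markers, 8, 7 and 6 were called lower in the same groups, and 1 was called higher with IL-4 plus IL-6. Among all genes tested, 31.9%, 38.8% and 34% were called lower there. The antiviral effectors were lower in these groups too. Siglech and Clec9a have no value here. The part of these markers in the results below was not tested, and in bulk RNA fewer cells of a type and less RNA per cell cannot be told apart.

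Across the groups, IL-4 went with 13 of 16 antiviral effectors lower, beside 31.9% of all genes tested. IL-6 went with 7 of 16 higher and 1 lower and with all 6 GTPases higher, beside 16.1% of all genes tested higher and 23.1% lower. The medians of the 2 classes parted most where IL-4 and IL-6 were given together. The heat map of every tested member by array shows these patterns gene by gene.

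**Figure D1:**
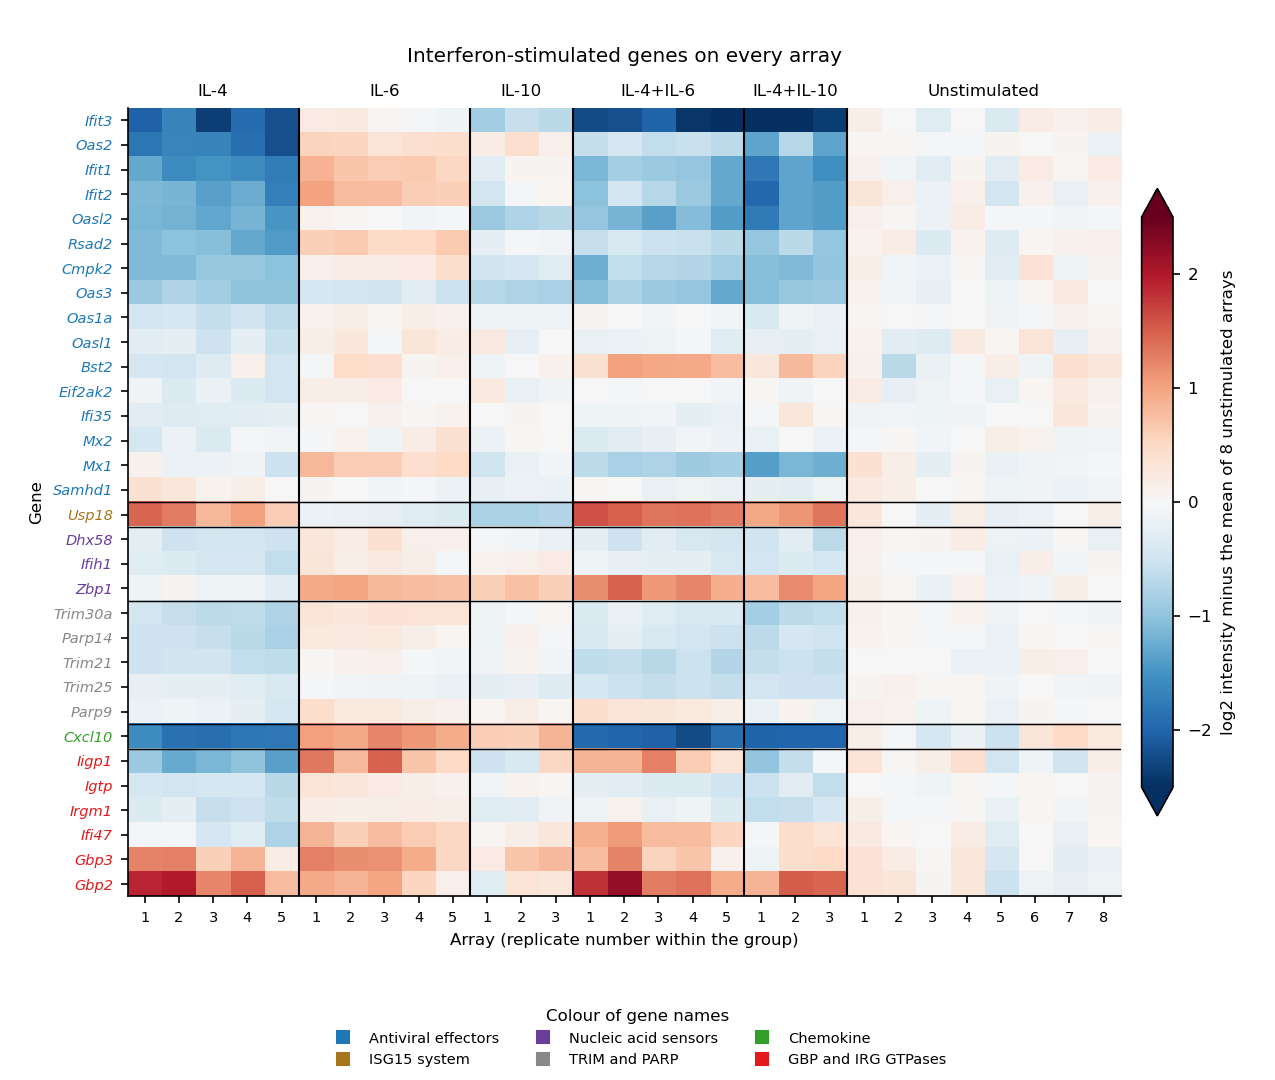
Each cell is 1 gene on 1 array, coloured by its log2 intensity minus the mean of the 8 unstimulated arrays, with arrays in columns by group and the colour range cut at 2.5 on the log2 scale. Ifit3, Oas2, Ifit1 and Cxcl10 are blue on all 5 IL-4 arrays, Zbp1 and Iigp1 are red on all 5 IL-4 plus IL-6 arrays, and Usp18 is red on every array with IL-4.

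The bases upstream of 5 members show how the promoters of the 2 classes look at the sites this pathway uses. Ifit1 and Ifit2 (antiviral) and Gbp3 and Gbp2 (GTPases; Iigp1 has no printed sequence) are shown for their differences with IL-6, and Ifit3, chosen after its values were seen, for its difference with IL-4. Each line gives the 160 bases before the gene's start on the plus strand, from RefSeq on build GRCm38.p6, and capitals mark the core of the interferon-stimulated response element, which is GAAA, any 2 bases and GAAA again, here in its reverse form with TTTC in place of each GAAA.
Ifit1 (chr19:34640729-34640888): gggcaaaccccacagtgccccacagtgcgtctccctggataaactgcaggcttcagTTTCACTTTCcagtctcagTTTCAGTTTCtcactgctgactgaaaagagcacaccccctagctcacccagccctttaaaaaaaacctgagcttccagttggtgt
Ifit2 (chr19:34550534-34550693): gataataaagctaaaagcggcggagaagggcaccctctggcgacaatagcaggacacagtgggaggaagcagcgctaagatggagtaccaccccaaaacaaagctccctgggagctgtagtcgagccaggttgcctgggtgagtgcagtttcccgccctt
Ifit3 (chr19:34583369-34583528): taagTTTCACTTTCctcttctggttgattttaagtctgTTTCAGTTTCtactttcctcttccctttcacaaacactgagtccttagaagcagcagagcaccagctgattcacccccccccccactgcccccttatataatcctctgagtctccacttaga
Gbp3 (chr3:142559884-142560043): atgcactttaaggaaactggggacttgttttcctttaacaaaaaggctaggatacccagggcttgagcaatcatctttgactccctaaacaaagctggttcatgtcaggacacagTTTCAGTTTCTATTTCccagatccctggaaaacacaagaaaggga
Gbp2 (chr3:142620503-142620662): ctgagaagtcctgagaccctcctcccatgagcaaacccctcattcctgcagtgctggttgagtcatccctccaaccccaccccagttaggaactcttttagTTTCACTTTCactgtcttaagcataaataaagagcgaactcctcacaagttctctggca
Ifit1, Ifit3 and Gbp3 hold 2 copies each, which overlap in Gbp3, Gbp2 holds 1, and none lies in the printed window of Ifit2. Over the longer window of 250 bases before to 50 after the start, the core was present, on either strand, in 19 of the 31 listed genes with a promoter entry (61.3%), against 3.99% of all 27025 genes with one. It was found in 8 of 17 antiviral effectors and in 5 of 6 GTPases. The gamma-activated site (TTCNNNGAA, the same on both strands) was present in 9 of the 31 (29%), against 9.55% of all genes, in 7 of 17 antiviral effectors and 2 of 6 GTPases. Ifit2 and Gbp3 each have 2 entries, and the other entry of Gbp3 holds no core. A match is a description of these letters and not a measured site. Mx1, Mx2, Oas2, Usp18, Dhx58, Zbp1, Parp9, Parp14 and Iigp1 have no entry.

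IL-4 alone went with lower interferon-stimulated transcripts. Of the 32 members tested, 29 were called in the comparison of IL-4 with unstimulated macrophages, 25 lower and 4 higher, against 59.5% of all genes tested called, 31.9% lower and 27.6% higher. The median log2 difference of the members was -0.45, against -0.014 over all genes tested. Among 16 antiviral effectors 13 were lower and 1 higher (median -0.72), and among 6 GTPases 4 were lower and 2 higher (median -0.39). Both means lay under 6.99 for 2 of the lower calls, Oasl1 and Iigp1, which are not read as changes in expression.

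The antiviral effectors with the largest differences under IL-4 were Ifit3, Oas2, Ifit1 and Ifit2. Ifit proteins bind foreign RNA and hold back its translation. Ifit3 read 6.80, 7.14, 6.45, 6.88 and 6.62 on the IL-4 arrays, against a lowest value of 8.46, a median of 8.88 and a highest of 9.0 unstimulated, a log2 difference of -2.04 ± 0.12 (adjusted p = 1.04e-14). Ifit1 read 6.90, 6.62, 6.69, 6.61 and 6.44 with IL-4, against 7.89, 8.24 and 8.39 (lowest, median, highest) unstimulated (-1.53 ± 0.098, adjusted p = 1.47e-13). Ifit2 read 7.85, 7.81, 7.61, 7.72 and 7.25 with IL-4, against 8.5, 9.08 and 9.27 unstimulated (-1.32 ± 0.14, 2.49-fold lower, adjusted p = 3.49e-09). Every IL-4 array lay below every unstimulated array for all 3 genes. Oas2 belongs to the oligoadenylate synthetases, which answer foreign RNA by making the short adenylates that switch on RNase L. It read 7.45, 7.61, 7.60, 7.37 and 7.07 with IL-4, against 9.12, 9.28 and 9.33 unstimulated, 3.59-fold lower (-1.84 ± 0.087, adjusted p = 1.69e-16).

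The rest of the oligoadenylate family moved less and one way. Oasl2 was 2.38-fold lower with IL-4 (-1.25 ± 0.075), Oas3 differed by -0.91 ± 0.067 and Oas1a by -0.53 ± 0.042, with no overlap between the groups for any of them. Rsad2 (viperin), which makes a nucleotide that ends viral RNA chains, read 8.41, 8.48, 8.46, 8.24 and 8.10 with IL-4, against 9.18, 9.60 and 9.70 unstimulated (2.26-fold lower, adjusted p = 1.33e-12). Cmpk2, a mitochondrial nucleotide kinase whose gene neighbours Rsad2, differed by -1.03 ± 0.087. Eif2ak2, the RNA-activated kinase that halts translation, Ifi35 and Mx2 were lower by less, at -0.29, -0.28 and -0.21 on the log2 scale, and the Eif2ak2 call was lost within the first set of arrays (-0.21, adjusted p = 0.0507). The Mx2 call was lost without IL-4 replicate 1 (adjusted p = 0.0717) or 3 (adjusted p = 0.056).

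Mx1, Bst2 and Samhd1 stood outside this pattern. Mx1 is a dynamin-like GTPase against influenza virus whose gene carries a deletion in C57BL/6 mice, and with IL-4 it was not called (-0.17 ± 0.097, adjusted p = 0.138). With the replicate number as a block it was called lower (-0.21, adjusted p = 0.0194). Bst2 (tetherin), which holds budding virions at the cell surface, differed by -0.31 ± 0.14 (adjusted p = 0.0635). Samhd1, which breaks down deoxynucleotides, was higher by 0.18 ± 0.064 (adjusted p = 0.0166), but that call was lost with a term for the array set (0.12, adjusted p = 0.123) and without IL-4 replicate 1 (adjusted p = 0.0873) or 2 (adjusted p = 0.0566).

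Regulators, sensors and the chemokine split under IL-4. Usp18, the protease that removes Isg15 from proteins and blocks signalling at the type I receptor, read 9.61, 9.43, 8.98, 9.17 and 8.77 with IL-4, against 7.92, 8.14 and 8.43 unstimulated. It was thus 2.07-fold higher (1.05 ± 0.10, adjusted p = 1.47e-09), with no overlap. Cxcl10, the chemokine that draws T cells bearing Cxcr3, read 5.64, 5.36, 5.34, 5.42 and 5.44 with IL-4, against 6.68, 7.26 and 7.72 unstimulated (-1.78 ± 0.12, adjusted p = 4.96e-13). With a term for the array set its difference was -1.57 ± 0.095. Of the sensors, Dhx58 was lower at -0.44 ± 0.071 and Ifih1 at -0.42 ± 0.059, while Zbp1, a sensor of Z-form nucleic acids that can start cell death, was not called (-0.11 ± 0.080, adjusted p = 0.231). The 5 TRIM and PARP members were all called lower, led by Trim30a (-0.62 ± 0.048, adjusted p = 1.25e-11) and Parp14 (-0.61 ± 0.057). The 3 probe sets of Trim25, a ubiquitin ligase that activates the RNA sensor Rigi, did not move alike, reading from -0.26 to 0.06 with IL-4.

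The GTPases parted by family under IL-4. The guanylate-binding proteins rose: Gbp2 read 11.36, 11.43, 10.67, 10.94 and 10.23 with IL-4, against 8.91, 9.42 and 9.81 unstimulated. That is 2.78-fold higher (1.47 ± 0.21, adjusted p = 9.74e-07), and the 2 probe sets of Gbp2 gave 1.43 and 1.47. Gbp3 read 9.51, 9.52, 8.86, 9.12 and 8.45 with IL-4, against 7.85, 8.27 and 8.63 unstimulated, 1.78-fold higher, with replicate 5 of IL-4 inside the unstimulated range. The IRG members did not follow. Igtp and Irgm1, which keep other IRG proteins off the cell's own membranes, were lower by 1.41-fold and 1.38-fold, and Ifi47, of the effector kind, by 1.24-fold (-0.31 ± 0.11, adjusted p = 0.0172). The Ifi47 call was lost without IL-4 replicate 5 (-0.20, adjusted p = 0.112) and within the first set of arrays (-0.34, adjusted p = 0.0548). Iigp1, also an effector, read 5.87, 5.54, 5.66, 5.80 and 5.44 with IL-4, against 6.30, 6.88 and 7.2 unstimulated, and both means lay under 6.99.

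**Figure D2:**
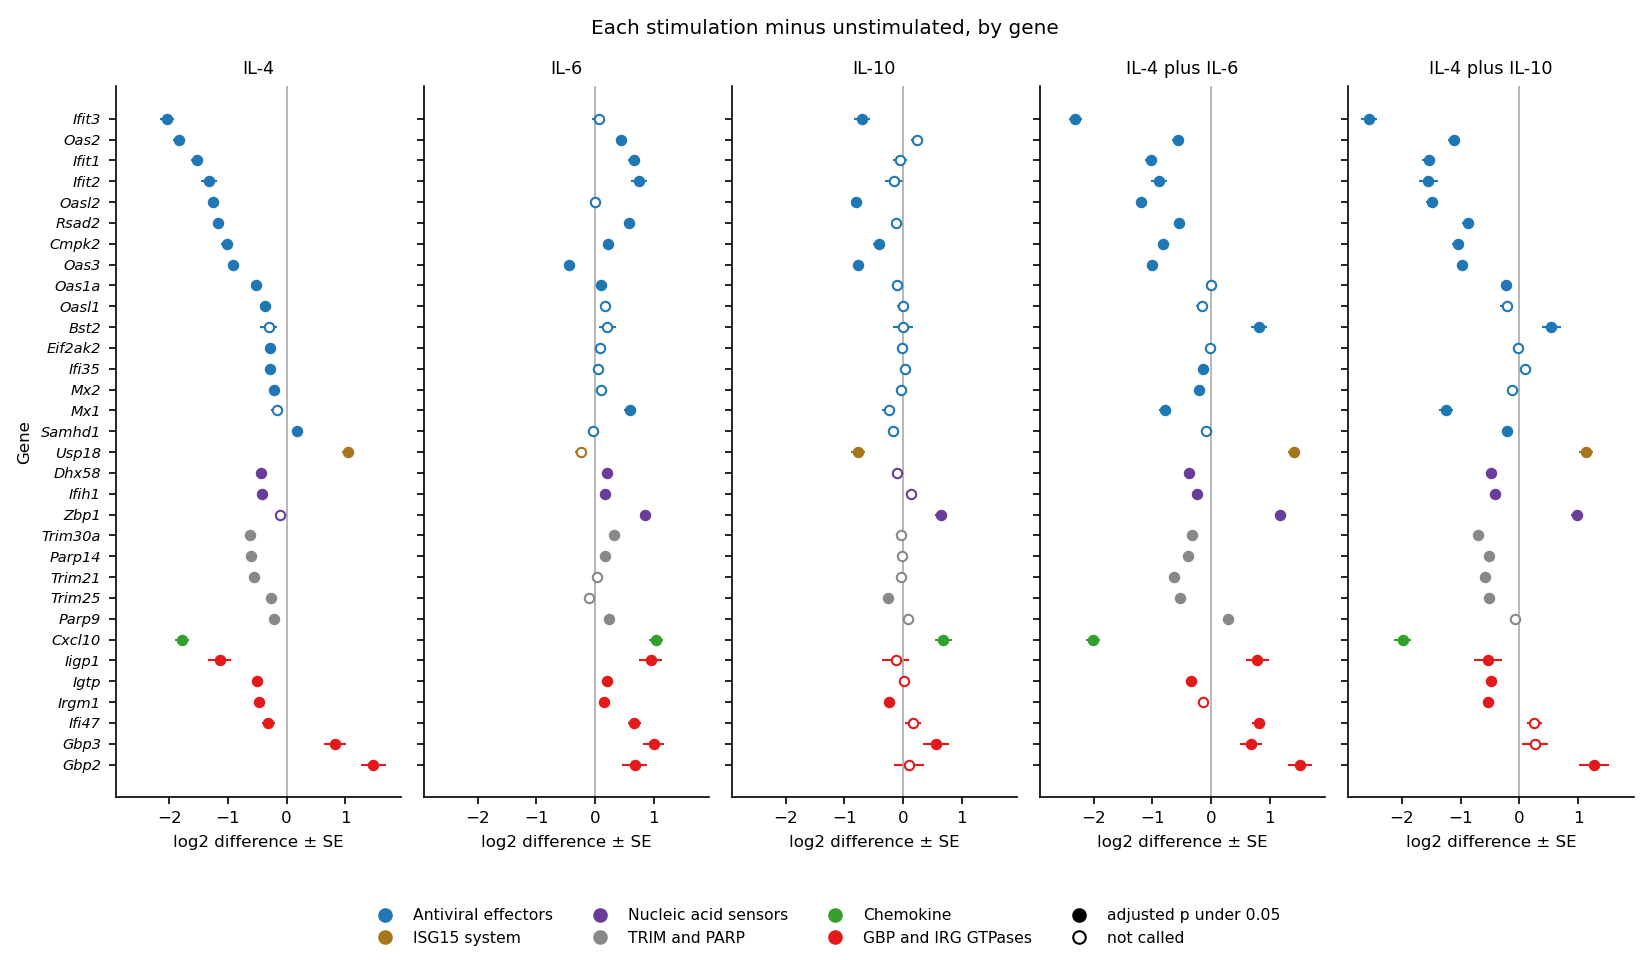
Each panel gives 1 stimulation minus unstimulated as a log2 difference (horizontal axis) for 32 genes (rows), with SE bars, filled points being called. The 4 genes with the largest decreases under IL-4, Ifit3, Oas2, Ifit1 and Cxcl10, lie at -2.04, -1.84, -1.53 and -1.78, and Gbp2 and Usp18 lie right of 0 in every panel with IL-4.

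IL-6 alone went the other way from IL-4 in most members. Of 32 members 21 were called against unstimulated, 20 higher and 1 lower, against 39.3% of all genes tested called, 16.1% higher and 23.1% lower. The members' median difference was 0.21 and that of all genes tested -0.031. By class, 7 of 16 antiviral effectors were higher and 1 lower (median 0.14), and all 6 GTPases were higher (median 0.68). The sensors were called higher in 3 of 3, and the TRIM and PARP members in 3 of 5.

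Cxcl10 differed most among the members with IL-6. It read 8.24, 8.19, 8.43, 8.30 and 8.15 with IL-6, above every unstimulated array (6.68, 7.26 and 7.72), which is 2.06-fold higher (1.05 ± 0.12, adjusted p = 4.97e-08), and 1.26 ± 0.095 with a term for the array set. Among the antiviral effectors, Ifit2 read 9.97, 9.75, 9.73, 9.58 and 9.56 with IL-6, against 8.5, 9.08 and 9.27 unstimulated (1.69-fold higher, adjusted p = 6.05e-05). Ifit1 was 1.59-fold higher (9.05, 8.88, 8.81, 8.83 and 8.7 with IL-6, against 7.89, 8.24 and 8.39 unstimulated), Mx1 1.52-fold, Rsad2 1.49-fold and Oas2 1.36-fold. For Ifit1, Ifit2, Oas2, Rsad2 and Mx1 all 5 IL-6 arrays lay above all 8 unstimulated ones, with no share of all genes to set beside this. Ifit3 and Oasl2 did not share this: Ifit3 differed by 0.06 ± 0.12 (adjusted p = 0.693) and Oasl2 by 0.00 ± 0.075 (adjusted p = 0.997). Oas3 was the member called lower (-0.44 ± 0.067, adjusted p = 5.48e-06).

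The GTPase with the largest IL-6 difference was Gbp3, which read 9.52, 9.42, 9.40, 9.20 and 8.79 with IL-6, against 7.85, 8.27 and 8.63 unstimulated, without overlap (2.0-fold higher, adjusted p = 7.67e-05). Iigp1 read 8.11, 7.60, 8.28, 7.5 and 7.29 with IL-6, against 6.30, 6.88 and 7.2 unstimulated (0.96 ± 0.20, adjusted p = 0.000281). Ifi47 was 1.60-fold higher, Igtp 1.16-fold and Irgm1 1.12-fold. On these 5 arrays both effector-type IRG genes had larger differences than both regulators. Gbp2 was 1.61-fold higher (0.68 ± 0.21, adjusted p = 0.0113), with adjusted p = 0.0527 with a term for the array set. The Irgm1 call (adjusted p = 0.0463) was lost with that term (adjusted p = 0.0726) and without any of several single arrays (adjusted p up to 0.0887 without IL-6 replicate 1). Zbp1 read 8.49, 8.53, 8.38, 8.31 and 8.27 with IL-6, against 7.37, 7.55 and 7.68 unstimulated, 1.81-fold higher without overlap (adjusted p = 1.04e-09). Trim30a, Parp9 and Parp14 were higher by 1.25-fold, 1.18-fold and 1.13-fold.

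Smaller IL-6 differences depended on the pairing of arrays by replicate number. With the number as a block, 28 of the 32 members were called, 24 higher and 4 lower. The share of all genes called with the block is not given here, so this count is not read as particular to the members. Newly called higher were Eif2ak2 (0.17, adjusted p = 0.0474), Ifi35 (0.13, adjusted p = 0.00999), Oasl1 (0.22, adjusted p = 0.0222) and Trim21 (0.09, adjusted p = 0.0303). Newly called lower were Usp18 (-0.24, adjusted p = 0.0193, and 0.0665 without the block), Trim25 (-0.13, adjusted p = 0.00746) and Samhd1 (-0.10, adjusted p = 0.0226). Ifi35 and Trim25 were also called without pairing, with a term for the array set (adjusted p = 0.0428 and 0.015). The same held within the first set of arrays (adjusted p = 0.00954 and 0.0284). Without the block, and beside Irgm1 above, weak calls were Cmpk2 (0.23, adjusted p = 0.0387), Oas1a (0.11, adjusted p = 0.0335), Ifih1 (0.17, adjusted p = 0.0263) and Dhx58 (0.21, adjusted p = 0.0172). Each lost its call without a single IL-6 array: Cmpk2 without replicate 5 (adjusted p = 0.137), Oas1a without replicate 4 (adjusted p = 0.0912), Ifih1 without replicate 1 (adjusted p = 0.104) and Dhx58 without replicate 3 (adjusted p = 0.072). Dhx58 also lost it with a term for the array set (0.15, adjusted p = 0.116).

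IL-10 alone (3 arrays) called fewer members. Of 32, 10 were called against unstimulated, 7 lower and 3 higher, a share of the order of that of all genes tested (37.8% called, 19.5% lower and 18.3% higher), and the median difference was -0.03 (0.001 over all genes tested). The antiviral effectors held 4 of the lower calls and no higher one. Oasl2 read 8.48, 8.63 and 8.72 with IL-10, against 9.26, 9.37 and 9.59 unstimulated (1.74-fold lower, adjusted p = 3.65e-08), and Ifit3 read 7.94, 8.24 and 8.14, against 8.46, 8.88 and 9.0 (1.63-fold lower, adjusted p = 0.000152). Oas3 (-0.77 ± 0.080, adjusted p = 9.65e-09) and Cmpk2 (-0.41 ± 0.10, adjusted p = 0.00264) were lower too. Ifit1 and Ifit2, neighbours of Ifit3 on chromosome 19, were not called (-0.05 ± 0.12 and -0.15 ± 0.16), nor was Oas2 (0.24 ± 0.10, adjusted p = 0.0681).

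Outside the effectors, Usp18 read 7.36, 7.35 and 7.42 with IL-10, below every unstimulated array (7.92, 8.14 and 8.43), 1.70-fold lower (adjusted p = 1.33e-05). Zbp1 read 8.14, 8.27 and 8.14, above every unstimulated array (7.37, 7.55 and 7.68), 1.56-fold higher (adjusted p = 3.54e-06). Cxcl10 read 7.84, 7.81 and 8.07, against 6.68, 7.26 and 7.72 unstimulated (0.69 ± 0.14, 1.61-fold higher, adjusted p = 0.000337). Cxcl10 was among the 2 members that differed between unstimulated replicates 6 to 8 and 1 to 5, and against replicates 6 to 8 alone its IL-10 difference was 0.33 ± 0.096 (adjusted p = 0.0448). Trim25 was 1.19-fold lower, but not called against replicates 6 to 8 alone (adjusted p = 0.0879). In the GTPases Gbp3 was called higher (0.57 ± 0.22, adjusted p = 0.0427) and Irgm1 lower (-0.23 ± 0.077, adjusted p = 0.0178). Neither call held throughout: Gbp3 gave adjusted p = 0.188 without IL-10 replicate 3, and Irgm1 adjusted p = 0.0524 with a term for the array set. Gbp2, Igtp, Ifi47 and Iigp1 were not called, with Iigp1 at 6.29, 6.41 and 7.31 on the IL-10 arrays, against 6.30, 6.88 and 7.2 unstimulated.

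Set directly against each other, IL-10 and IL-6 differed in 15 of 32 members, all 15 lower with IL-10, against 11.9% of all genes tested called, 5.62% lower and 6.26% higher. The largest were Iigp1 (-1.08 ± 0.25, adjusted p = 0.0108), Ifit2 (1.88-fold lower with IL-10, adjusted p = 0.00383), Mx1 (1.80-fold lower, adjusted p = 0.000304), Oasl2 (1.74-fold lower) and Ifit3 (1.71-fold lower). These groups lie in different sets of arrays. With a term for the set 6 members were called, all lower with IL-10, of which 5 had been called without it. The share of all genes called with that term is not given here, so this count is not read as particular to the members. Among the calls lost were Iigp1 (-0.85, adjusted p = 0.999), Ifit2 (-0.93, adjusted p = 0.395) and Mx1 (-0.75, adjusted p = 0.174). Oasl2 (-0.70, adjusted p = 0.0288) and Ifit3 (-1.02, adjusted p = 0.0288) kept theirs, and Cxcl10 was newly called (-0.92, adjusted p = 0.0106, against -0.36 and adjusted p = 0.12 without the term). Without IL-10 replicate 2, 8 members were called, Iigp1 no longer among them (adjusted p = 0.0756).

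**Figure D3:**
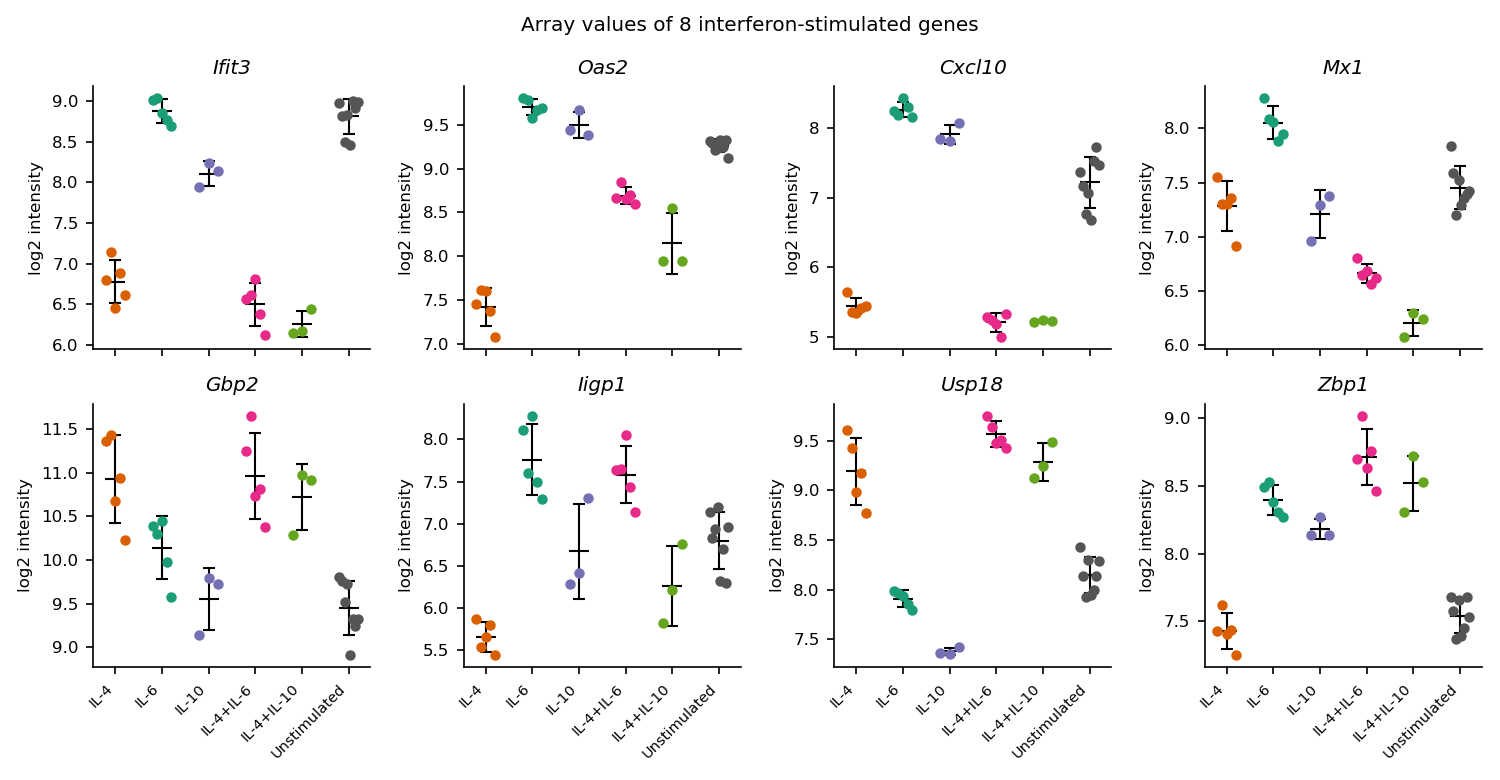
Points are single arrays, bars the mean and SD, and the vertical axis is the log2 intensity of each of 8 genes in the 6 groups (3 to 8 arrays each). Ifit3 and Cxcl10 are low in every group with IL-4, Iigp1 is low with IL-4 alone and not with IL-4 plus IL-6, and Usp18 is high in every group with IL-4.

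IL-4 together with IL-6 left the antiviral effectors low and the GTPases high. Against unstimulated, 27 of 32 members were called, 19 lower and 8 higher, beside 73.8% of all genes tested (38.8% lower, 35% higher). The members' median was -0.28, against -0.017 over all genes tested. Of 16 antiviral effectors 11 were lower and 1 higher (median -0.56), and of 6 GTPases 4 were higher and 1 lower (median 0.73). Ifit3 read 6.57, 6.61, 6.81, 6.38 and 6.12 with the combination, against 8.46, 8.88 and 9.0 unstimulated (-2.32 ± 0.12, adjusted p = 1.73e-16). Oasl2 was 2.28-fold lower and Ifit1 2.04-fold lower, and Mx1, not called with IL-4, read 6.80, 6.65, 6.68, 6.56 and 6.62, below every unstimulated array (7.2, 7.40 and 7.84; -0.79 ± 0.097, adjusted p = 3.39e-08). Bst2 was the effector called higher: it read 9.93, 10.59, 10.52, 10.50 and 10.32, against 8.89, 9.60 and 9.95 unstimulated (1.76-fold, adjusted p = 9.9e-06).

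Cxcl10, the member that IL-6 alone raised most, read 5.28, 5.24, 5.19, 4.99 and 5.33 with IL-4 plus IL-6, against 6.68, 7.26 and 7.72 unstimulated (-2.01 ± 0.12, adjusted p = 1.13e-14). Usp18 was 2.67-fold higher and Zbp1 2.25-fold higher (8.70, 9.02, 8.63, 8.76 and 8.46, against 7.37, 7.55 and 7.68 unstimulated), both without overlap. Gbp2 read 11.25, 11.65, 10.73, 10.81 and 10.38 with the combination, above every unstimulated array (8.91, 9.42 and 9.81), 2.85-fold higher (adjusted p = 3.34e-07). Ifi47 was 1.75-fold higher (0.81 ± 0.11, adjusted p = 2.25e-07), Gbp3 1.60-fold, and Iigp1 read 7.64, 7.65, 8.05, 7.43 and 7.14, against 6.30, 6.88 and 7.2 (0.78 ± 0.20). Igtp stood apart as the GTPase called lower (1.26-fold, adjusted p = 4.47e-06), and Irgm1 was not called (-0.14, adjusted p = 0.0538). Ifi35 (-0.13, adjusted p = 0.0243) lost its call with the replicate block (-0.06, adjusted p = 0.183). It also lost it with a term for the array set (adjusted p = 0.269) and within the first set of arrays (adjusted p = 0.147). Samhd1 was called lower with the block (-0.16, adjusted p = 0.00242) and with a term for the array set (adjusted p = 0.0376).

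Adding IL-6 to IL-4 raised 18 of 32 members and lowered 3, against 60.5% of all genes tested called in this comparison (29.4% higher, 31.2% lower). Iigp1 moved most (1.92 ± 0.22, adjusted p = 1.43e-08), from values listed above that did not overlap. Zbp1 was 2.43-fold, Oas2 2.41-fold, Bst2 2.17-fold and Ifi47 2.17-fold higher than with IL-4 alone. Lower than with IL-4 alone were Mx1 (-0.62 ± 0.11, adjusted p = 1.44e-05), Samhd1 (1.21-fold) and Trim25 (1.21-fold), the last with probe sets that went both ways (-0.27 to 0.24). With the replicate block Cxcl10 was called lower (-0.23, adjusted p = 0.00506), with both means under 6.99, and Cmpk2 (0.20, adjusted p = 0.0376) and Oasl1 (0.20, adjusted p = 0.00777) higher, these too with both means under 6.99. Against IL-6 alone, the combination had 26 of 32 members called, 22 lower and 4 higher, against 66.9% of all genes tested (32.9% lower, 34% higher). Cxcl10 (-3.05 ± 0.13, adjusted p = 1.65e-17) and Ifit3 (-2.38 ± 0.13) were lowest, Ifit1 was 3.24-fold and Ifit2 3.12-fold lower, and Usp18 3.16-fold, Gbp2 1.78-fold, Bst2 1.52-fold and Zbp1 1.25-fold higher. With the replicate block Gbp3 (-0.33, adjusted p = 0.00632), Iigp1 (-0.17, adjusted p = 0.0408) and Eif2ak2 (-0.11, adjusted p = 0.0296) were called lower as well.

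IL-4 together with IL-10 (3 arrays) also left most effectors low. Against unstimulated, 25 of 32 members were called, 21 lower and 4 higher, beside 72.1% of all genes tested (34% lower, 38.1% higher), and the median was -0.49 (0.018 over all genes tested). Of 16 antiviral effectors 11 were lower and 1 higher (median -0.93), and of 6 GTPases 3 were lower and 1 higher (median -0.11). Ifit3 read 6.15, 6.17 and 6.44 with the combination, against 8.46, 8.88 and 9.0 unstimulated (-2.56 ± 0.14, adjusted p = 1.98e-15), and Ifit2 read 7.01, 7.65 and 7.57, against 8.5, 9.08 and 9.27 (2.94-fold lower, adjusted p = 2.35e-09). Oasl2 was 2.82-fold lower, Oas2 2.17-fold and Rsad2 1.83-fold, and Mx1 read 6.07, 6.30 and 6.24, against 7.2, 7.40 and 7.84 (-1.25 ± 0.12, adjusted p = 2.09e-10). All arrays of the combination lay below all unstimulated arrays for these 6 genes, with no share of all genes to set beside this.

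Gbp2 read 10.29, 10.97 and 10.91 with IL-4 plus IL-10, against 8.91, 9.42 and 9.81 unstimulated (2.42-fold higher, adjusted p = 6.18e-05), while Gbp3 was not called (0.27 ± 0.22, adjusted p = 0.278). Against unstimulated replicates 6 to 8 alone it was (0.41, adjusted p = 0.0395), as was Ifi47 (0.31, adjusted p = 0.0452). Igtp and Irgm1 were lower by 1.4-fold and 1.45-fold. Usp18 was 2.20-fold and Zbp1 1.97-fold higher, both without overlap, and Cxcl10 read 5.21, 5.24 and 5.23, against 6.68, 7.26 and 7.72 (-1.99 ± 0.14, adjusted p = 1.15e-12). The calls of Bst2 (0.55 ± 0.17, adjusted p = 0.00508) and Samhd1 (-0.22 ± 0.076, adjusted p = 0.0131) were lost with a term for the array set, at 0.35 (adjusted p = 0.114) and -0.11 (adjusted p = 0.248). That of Iigp1 (-0.54 ± 0.23, adjusted p = 0.0418) was lost with it too (-0.39, adjusted p = 0.227), and both its means lay under 6.99. Without IL-4 plus IL-10 replicate 2 the Bst2 call was also lost (adjusted p = 0.0597).

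Against IL-4 alone, IL-4 plus IL-10 had 15 of 32 members called, 9 higher and 6 lower, beside 57.3% of all genes tested (32.7% higher, 24.6% lower). Both means lay under 6.99 for 2 of these calls, Ifit3 and Iigp1, which are not read as changes in expression. Zbp1 (2.13-fold), Bst2 (1.81-fold) and Oas2 (1.65-fold) were higher and Mx1 lower (-1.08 ± 0.12, adjusted p = 4.71e-08). The Bst2 call was lost with a term for the array set (0.54, adjusted p = 0.0926). With that term 7 members were called, and Cxcl10 was then among them (-0.78, adjusted p = 0.000343), its means both under 6.99. No share of all genes stands beside the count with the term. Against IL-10 alone, 21 of 32 were called, 17 lower and 4 higher, beside 59.9% of all genes tested (28.1% lower, 31.8% higher), led by Cxcl10 (-2.68 ± 0.17) and Usp18 (3.74-fold higher, adjusted p = 1.42e-11). With the replicate block, which joins the numbers within this set of arrays, Gbp3 (-0.30, adjusted p = 0.00102), Iigp1 (-0.41, adjusted p = 0.00197), Oas3 (-0.21, adjusted p = 0.0136), Oasl1 (-0.21, adjusted p = 0.0374) and Parp9 (-0.16, adjusted p = 0.0224) were called lower too. Between the 2 combinations, 13 of 32 members were called, 12 lower with IL-4 plus IL-10 and 1 higher, beside 42.8% of all genes tested (16% lower, 26.9% higher). Mx1 is among the lower calls with both means under 6.99 and is not read as a change in expression. Iigp1 differed most (-1.32 ± 0.25, adjusted p = 0.000181). Ifi35, the member called higher (0.23, adjusted p = 0.00836), gave 0.03 (adjusted p = 0.847) with a term for the array set.

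An interaction term asks whether the combination departs from the sum of the 2 single cytokine differences on the log2 scale. For IL-4 with IL-6, 13 of 32 members departed, 9 above and 4 below, beside 39.9% of all genes tested (21.4% above, 18.6% below), so the share is that of genes in general. Cxcl10 (-1.28 ± 0.18, adjusted p = 1.68e-06) and Mx1 (-1.22 ± 0.14, adjusted p = 1.07e-07) fell furthest below the sum: IL-6 alone raised both, and with IL-4 present both were below unstimulated. Gbp3 also lay below it (-1.16 ± 0.28, adjusted p = 0.00129), as did Trim25 (-0.18 ± 0.060, adjusted p = 0.0199), whose probe sets disagreed (-0.23 to 0.39) and whose call was lost with a term for the array set (adjusted p = 0.0605). Above the sum lay Iigp1 (0.96 ± 0.29, adjusted p = 0.00972), Bst2 (0.91 ± 0.21), Oas2 (0.82 ± 0.13, adjusted p = 8.64e-06), Usp18 (0.61 ± 0.16), Ifi47 (0.45 ± 0.17), Zbp1 (0.43 ± 0.12), Oas1a (0.41 ± 0.062), Oas3 (0.35 ± 0.10) and Parp9 (0.26 ± 0.093). The last calls were not firm: without IL-4 replicate 5, Ifi47 gave adjusted p = 0.0826 and Parp9 adjusted p = 0.0653. Some of the terms rest on group means under 6.99, where signal over background was not tested, so their sizes are not firm. Among these means were Iigp1 with IL-4 (5.66) and unstimulated (6.80), and Oas3 with IL-4 (6.60) and with the combination (6.505). So were Cxcl10 with IL-4 (5.44) and with the combination (5.21), and Mx1 with the combination (6.66). Ifit1, Ifit2 and Ifit3 were not called (-0.17, -0.32 and -0.34, adjusted p = 0.379, 0.217 and 0.117). With the replicate block they were called below it, at -0.26 (Ifit1, adjusted p = 0.0388), -0.33 (Ifit2, adjusted p = 0.0468) and -0.44 (Ifit3, adjusted p = 0.0164). So were Gbp2 (-0.55, adjusted p = 0.00774), Samhd1 (-0.17, adjusted p = 0.00168) and Trim21 (-0.18, adjusted p = 0.0105). With the block 19 members were called, a count with no share of all genes beside it.

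For IL-4 with IL-10, 12 of 32 members departed, 9 above and 3 below, beside 25.6% of all genes tested (15.5% above, 10.1% below). Below lay Gbp3 (-1.13 ± 0.32, adjusted p = 0.0111), Cxcl10 (-0.90 ± 0.21, adjusted p = 0.00218) and Mx1 (-0.83 ± 0.17, adjusted p = 0.000552). Usp18 lay above (0.86 ± 0.18, adjusted p = 0.000856), as did Bst2 (0.85 ± 0.25), Oas3 (0.70 ± 0.12), Oasl2 (0.55 ± 0.13) and Oas2 (0.49 ± 0.15). The Oas3 mean lay under 6.99 with IL-4 (6.60), with IL-10 (6.74) and with the combination (6.53), against 7.51 unstimulated. Cxcl10 with IL-4 (5.44) and with the combination (5.23), and Mx1 with the combination (6.20), lay under it too. Expression was not established at such levels, which leaves the sizes of the Oas3, Cxcl10 and Mx1 terms uncertain. With the replicate block, which here joins arrays of both sets by numbers that do not pair them, 6 members were called. This count has no share of all genes beside it. Usp18 (adjusted p = 0.0544), Bst2 (adjusted p = 0.0847), Oasl2 (adjusted p = 0.0536) and Oas2 (adjusted p = 0.133) were then not called, and Oas3 (adjusted p = 0.00622), Gbp3, Cxcl10 and Mx1 were. The 3 genes below the sum lay below it in the interaction of IL-4 with IL-6 too, the 2 terms sharing their IL-4 and unstimulated arrays. Without IL-4 plus IL-10 replicate 2, 7 members were called, and Bst2 (adjusted p = 0.0528) and Oas2 (adjusted p = 0.124) were not.

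**Figure D4:**
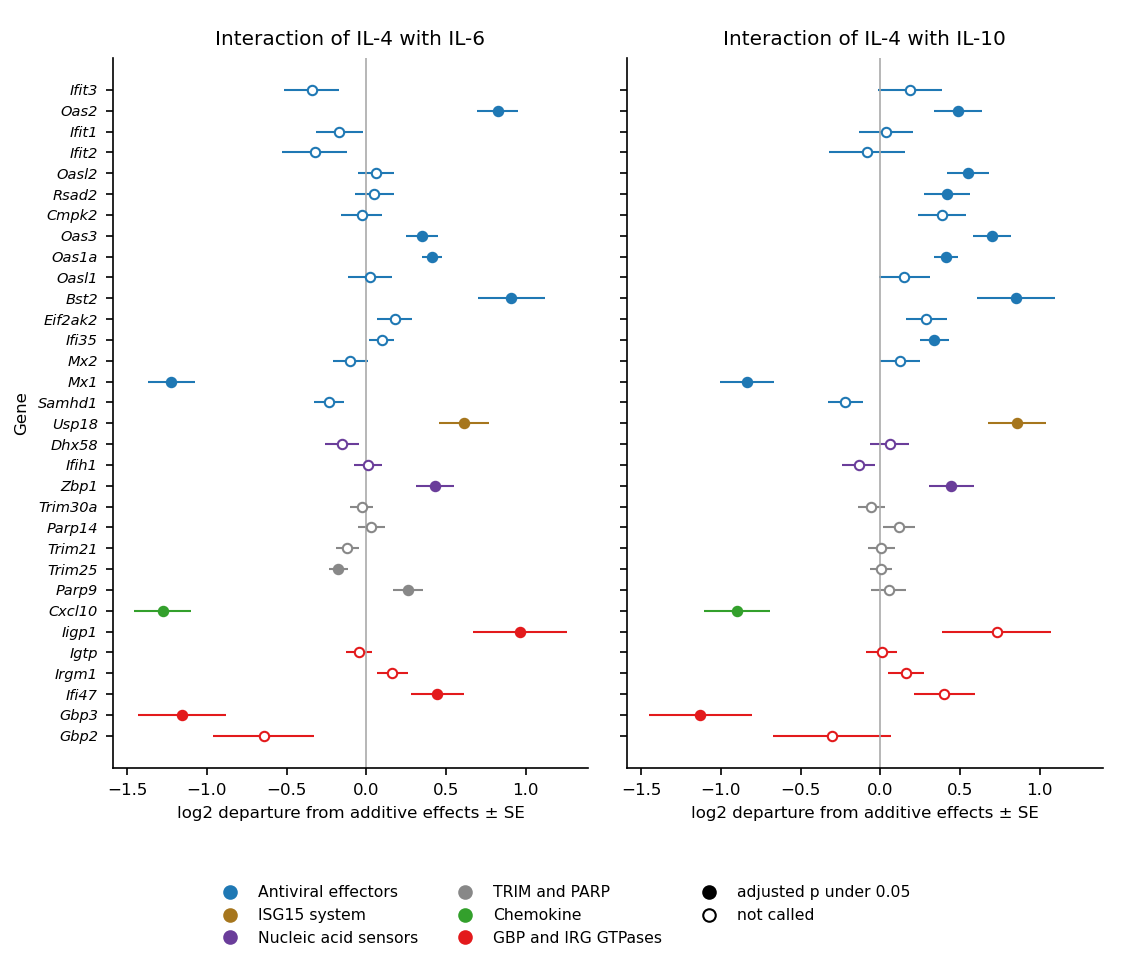
Each row is a gene, and the horizontal axis is the log2 departure of the combination from the sum of its single cytokine differences (± SE), with filled points called. Cxcl10, Mx1 and Gbp3 lie left of 0 in both panels, and Bst2, Oas2 and Usp18 right of 0 in both.

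The 2 classes were set against each other by the median over their genes. The median of the antiviral effectors lay below that of the GTPases under every stimulation, by 0.33 on the log2 scale with IL-4, 0.54 with IL-6, 0.17 with IL-10, 1.29 with IL-4 plus IL-6 and 0.82 with IL-4 plus IL-10 against unstimulated, and no test was made of these medians. With IL-4 plus IL-6, the score of an array (the median over the class after subtracting each gene's unstimulated mean) lay between -0.67 and -0.41 for the effectors and between 0.22 and 0.95 for the GTPases. Unstimulated arrays lay between -0.15 and 0.11 for the effectors and between -0.36 and 0.29 for the GTPases. The GTPase score varied more between arrays, with an SD of 0.21 to 0.27 in each group, against 0.026 to 0.17 for the effectors. With IL-10 the 2 classes differed by less than that spread. Within the GTPases the members did not move as 1 class: with IL-4, Gbp2 and Gbp3 were called higher and Igtp, Irgm1 and Ifi47 lower.

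**Figure D5:**
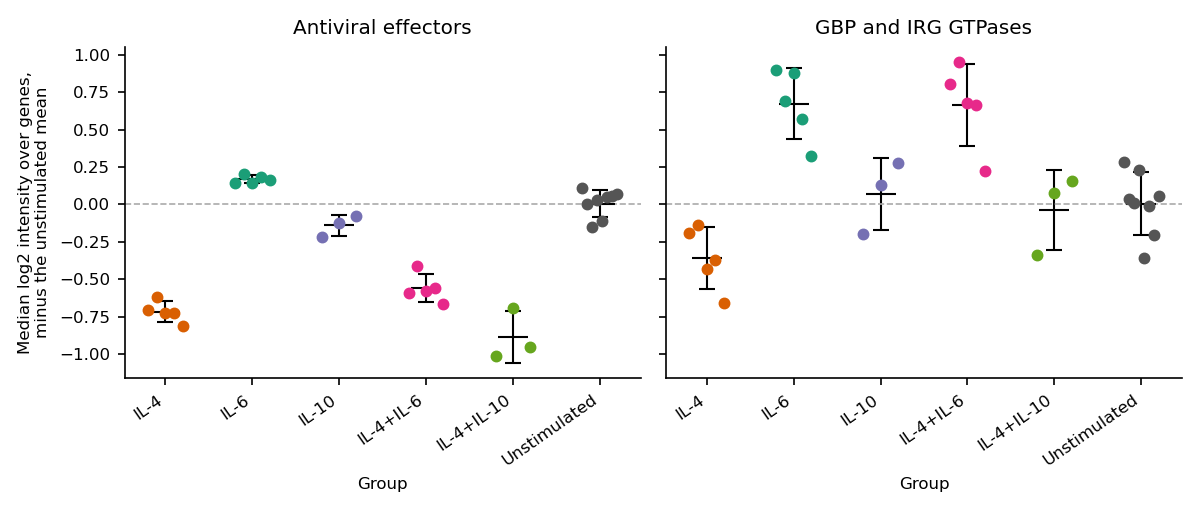
Points are single arrays, bars the mean and SD of each group (3 to 8 arrays), and the vertical axis is the median log2 intensity over 16 antiviral effectors (left) or 6 GBP and IRG GTPases (right) after subtracting each gene's unstimulated mean. Effector scores of all arrays with IL-4 lie below every unstimulated array, while GTPase scores with IL-4 plus IL-6 lie mostly above them.

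The genes that carry interferon signals were read from a list of 31, of which 29 were measured and 23 tested. Cgas has no probe set of its own and was not analysed here. The interferon transcripts themselves (Ifna1, Ifna2, Ifna4, Ifnb1 and Ifng) did not pass the filter in any comparison, Ifnb1 lying between 4.55 and 5.15 and Ifng between 3.02 and 3.67 on all arrays. With IL-4, 11 of the 23 were called lower and 6 higher (median -0.12), beside 31.9% and 27.6% of all genes tested. Irf7, the factor that amplifies type I interferon and is itself interferon-stimulated, was lower (mean 7.11 over 5 IL-4 arrays, SD 0.297, against 8.64, SD 0.141, over 8 unstimulated ones, log2 difference -1.52 ± 0.11, adjusted p = 1.43e-12), as were Tlr7 (-0.95 ± 0.063), Irf8 (-0.68 ± 0.057) and Irf9 (-0.46 ± 0.064). Socs1, an inhibitor of Jak kinases, was higher (1.96 ± 0.092, with an unstimulated mean of 5.17), and so was Jak2 (0.97 ± 0.036).

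With IL-6, 11 of the 23 were higher and 2 lower (median 0.15), beside 16.1% and 23.1% of all genes tested. Among the higher were the cytosolic DNA adaptor Sting1 (0.96 ± 0.090, adjusted p = 1.24e-09), Irf1 (0.46 ± 0.094), Stat2 (0.46 ± 0.087) and Irf9 (0.23 ± 0.064), while Irf7 was not called (0.21 ± 0.11, adjusted p = 0.12). With IL-10, 5 were higher and 1 lower (median 0.08), a smaller share than the 37.8% of all genes tested, with Sting1 at 0.57 ± 0.11 and Ifnar1 at 0.43 ± 0.049. With IL-4 plus IL-6, 13 were lower and 6 higher (median -0.18), beside 73.8% of all genes tested called. The genes called there included Stat2 (0.80 ± 0.087), Irf1 (0.66 ± 0.094), Socs1 (2.68 ± 0.092) and Jak2 (2.35 ± 0.036) on the higher side and Ifngr1, the ligand-binding chain for interferon-gamma (-1.21 ± 0.049, adjusted p = 1.32e-18), and Irf7 (-0.98 ± 0.11) on the lower. With IL-4 plus IL-10, 11 were lower and 6 higher (median -0.14), a share near the 72.1% of all genes tested, with Socs1 at 3.11 ± 0.11, Irf7 at -1.11 ± 0.13 and Ifngr1 at -0.88 ± 0.058. Ifngr2, Jak1 and Sting1 also differed between unstimulated replicates 6 to 8 and 1 to 5 (-1.18, -0.40 and -0.37), so their differences with the groups of either set carry that gap.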

How the data were processed

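RNA was measured on 29 Affymetrix 3' arrays. The authors deposited log2 intensities. RMA and GCOS 1.4 are named, without a role, per the submitters' processing notes, and the RMA version and annotation are not given in the sources used here. They were used as deposited. Probe sets with exactly 1 gene (20393 of 22690) were kept, and the probe set with the highest mean stood for a gene (11 members have more than 1). Genes with at least 3 arrays above log2 6.99 were fitted together (limma 3.58.1, R 4.3.3, lmFit and eBayes, two-sided, Benjamini-Hochberg over 7154 genes, threshold 0.05), after the procedure was tested on simulated data. The number of arrays limits the precision.

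Members, classes and lists were chosen with earlier results of these data known. Members were named where they had the 4 largest differences of the effectors or the 2 largest of another class in a comparison with unstimulated; others are given by value, and some were named after their values were seen.

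Same-numbered arrays deviated together within the first set (30 of 30 pairs, lowest r 0.457, median 0.605) and within the IL-10 groups (3 of 3, lowest r 0.596). Differently numbered pairs of the first set had a median r of -0.231 and a highest of 0.49, so the ranges overlapped. In the IL-10 groups their highest r was -0.066. The numbers were thus taken to pair arrays within each of these, as the data and not the labels show. Across the sets they do not (median r -0.345). The block holds the arrays of the compared groups that share a number.

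Each result was recomputed with a filter at log2 9.16 (the 75th percentile) or none, after median centring or quantile normalization, with probe sets averaged per gene or all kept, with eBayes trend and robust, with only the groups compared, with the replicate block, a term for the array set or arrays of 1 set, at a threshold of 0.01, and without each array in turn. Promoters were RefSeq's, on GRCm38.p6.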

Additional observations from a re-analysis of the deposited data

Results flagged for a closer look

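In 5 of 128 groups of arrays for the 32 members (3.91%), 1 array lay far from the others of its group by Dixon's test, which chance gives in about 1 in 20 groups. With IL-4, Bst2 read 9.68 on replicate 4, against 9.24 for the next array, Dhx58 read 8.07 on replicate 1, against 7.86 for the next, and Igtp read 8.58 on replicate 5, below 8.79 for the next. With IL-6, Cmpk2 read 8.17 on replicate 5, against 7.94 for the next array. Unstimulated, Ifi35 read 9.34 on replicate 7, against 9.12 for the next, and Ifi35 is 1 of the 2 members that differed between unstimulated replicates 6 to 8 and 1 to 5.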

How the results depend on the processing

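With the filter at the 75th percentile 20 members were tested, and 19 were called with IL-4, 5 with IL-10, 16 with IL-4 plus IL-10 and 16 with IL-4 plus IL-6 against IL-6. With a term for the array set 7 were called for IL-4 plus IL-10 against IL-4 and 6 between IL-10 and IL-6, and the cause was not tested. In the interaction of IL-4 with IL-10, 6 were called with the replicate block, where the numbers join arrays of both sets, and 7 at a threshold of 0.01, where IL-10 against IL-6 gave 9. The shares of all genes called under these settings, or with an array left out, are not given here. Such counts are therefore not read as particular to the members. The median of the effectors minus that of the GTPases was -0.54 (IL-4) and -1.02 (IL-4 plus IL-6) at the 75th percentile, and -1.08 with every probe set (IL-4 plus IL-10). The block changed no call beyond those given above in the comparisons within a set. For IL-10 the block joins arrays of different sets, whose numbers do not pair, and gave -0.05, against -0.17 without it. Trim25 changed sign with the mean of its probe sets in IL-4 plus IL-10 against IL-4 (0.017) and against IL-10 (0.08). Restricting to arrays of 1 set gives no value for IL-4 plus IL-10 against IL-4, IL-10 against IL-6, the 2 combinations and the interaction of IL-4 with IL-10. Other scalings moved the median of all genes by at most 0.039.

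Leaving out each array in turn gave 28 to 30 members called with IL-4, 18 to 23 with IL-6, 8 to 11 with IL-10, 26 to 28 with IL-4 plus IL-6 and 22 to 26 with IL-4 plus IL-10. It gave 18 to 22 for IL-4 plus IL-6 against IL-4, 25 to 27 against IL-6, 12 to 15 for IL-4 plus IL-10 against IL-4, 20 to 22 against IL-10, 11 to 14 and 7 to 13 for the interactions with IL-6 and IL-10, 8 to 17 for IL-10 against IL-6 and 10 to 16 between the combinations. The difference of the class medians ran from -0.39 to -0.29 (IL-4), -0.62 to -0.46 (IL-6), -0.26 to -0.12 (IL-10), -1.38 to -1.22 (IL-4 plus IL-6) and -0.92 to -0.78 (IL-4 plus IL-10).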
